A study of Mus musculus with 12 samples.

Results

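The 10 genes described here encode enzymes and helpers that fold, trim and cross-link collagen. They were chosen by name as the lysyl oxidases Lox, Loxl1 and Loxl2, the lysyl hydroxylases Plod1, Plod2 and Plod3, the prolyl hydroxylase subunits P4ha1 and P4ha2, the procollagen chaperone Serpinh1 and the C-proteinase enhancer Pcolce. All 10 were found among the 25655 genes of each of 2 tables, 1 for muscle and 1 for bone. The series profiled PDGFRα+ mesenchymal cells sorted from skeletal muscle and bone of female mice by 3' mRNA sequencing, and asked which genes depend on estrogen receptor alpha (Esr1) in these cells. Knockout mice carried PDGFRα-CreER, a Cre recombinase that needs tamoxifen to act and is driven by the Pdgfra promoter, and were Esr1flox/flox. There were 3 muscle knockout samples and 3 muscle control samples, of which 2 controls carried PDGFRα-CreER alone and 1 was PDGFRα-CreER;Esr1flox/+. Likewise 3 bone knockout samples stood against 3 bone control samples, of which 1 was Esr1flox/flox without Cre and 2 carried PDGFRα-CreER alone. Neither ages nor tamoxifen doses are in the sources used here. Controls of different genotype cannot be from the same animal, so each control group holds more than 1 animal and mixes genotypes. Other replicates may or may not be separate animals. A p-value therefore covers the spread among these samples alone, part of which may be technical.

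Fibrillar collagen is made as procollagen chains in the endoplasmic reticulum. Prolyl 4-hydroxylases stabilise the triple helix, lysyl hydroxylases prepare lysines for glycosylation and cross-linking, and the chaperone HSP47, encoded by Serpinh1, holds the folded helix on its way to the Golgi. Outside the cell, proteinases remove the propeptides, which Pcolce speeds up at the C-terminal end, and lysyl oxidases then convert lysines to aldehydes that form the covalent cross-links of fibrils and elastic fibres. Mesenchymal cells of muscle and bone are main producers of these fibrils.

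Every fold change, p, FDR and group mean of a gene below comes from the authors' deposited table of that tissue, and a log2 fold change above 0 is higher in the knockout. The level of a gene means its larger group mean, the higher of the knockout and control means, whose unit the header does not name. It is not stated to be per length, so levels of different genes are not ranked. Columns of single libraries carry codes that match no label and were not used, so no value per sample, no depth and no replicate spread can be shown. A standard error was therefore recovered from each deposited fold change and p by taking the test as normal, and intervals are 95% intervals from that error. A gene was called at FDR under 0.05.

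Pdgfra and Ptprc were read as checks of the gate, PDGFRα+ and CD45-. The authors' deposited table for muscle gave Pdgfra a level of 494 and the pan-leukocyte gene Ptprc, which encodes CD45, 0.781. In the authors' deposited table for bone Pdgfra had a level of 8.60 and Ptprc 23.1, both of them means of the knockout group. Divided by the size of the fold, they gave 4.11 for Pdgfra and 1.44 for Ptprc. Neither gene was called in bone, with FDR of 0.829 for Pdgfra and 0.147 for Ptprc in the authors' deposited table. The interval of the Ptprc log2 fold change, -0.26 to 8.26, included 0. A higher Ptprc level in the knockout group is therefore a point value only. Without values per sample, how the knockout samples share that mean cannot be shown. Summed over all genes of a table, 58.4% of the level in bone and 0.338% in muscle belonged to 4 globin genes, in tables that may be normalized separately. Esr1 itself was not called in the authors' deposited table, with a log2 fold change of 1.02 in muscle (FDR = 1.00) and -2.69 in bone (FDR = 0.440). A tag at the 3' end can lie outside a deleted exon, so this does not check the genotypes.

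In muscle none of the 10 genes was called, and Loxl1 and Serpinh1 came closest. Loxl1 encodes a lysyl oxidase that acts on elastic fibres, and it had 2.50 times the control level in the knockout samples (log2 fold change 1.32, 95% interval 0.48 to 2.17). In the authors' deposited table its p was 0.00207 and its FDR 0.232, and the p ranked 58 of 13158. Serpinh1 had 1.57 times the control level (log2 fold change 0.65, interval 0.06 to 1.24), with p = 0.0320 and FDR = 0.713 in the authors' deposited table. Of 10 genes 0 passed FDR 0.05, where 0.127% of the 7107 muscle genes with an FDR did. At an unadjusted p under 0.05, 2 of 10 were higher and 0 lower, beside 6.41% higher and 5.31% lower among the 13158 muscle genes with a p. Of the 10, 8 had a positive value, as had 53.5% of all genes with a p, and their median log2 fold change was 0.27, against 0.12 over all genes with a p.

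**Figure D1:**
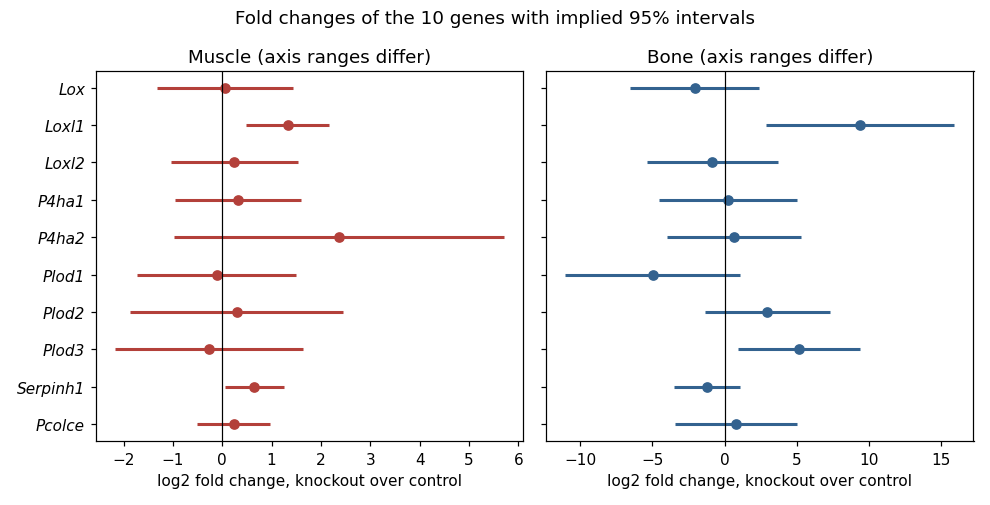
Log2 fold change of knockout over control (x axis, ranges differ between panels) for each of the 10 genes (y axis), in muscle on the left and bone on the right. Points are the authors' deposited values and lines are 95% intervals recovered from the deposited p. In muscle the lines of Loxl1 and Serpinh1 lie above 0, and in bone those of Loxl1 and Plod3 do.

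Lox and Loxl2 had values near 0 with wide intervals in muscle. Lox, the founding enzyme of the family, had a log2 fold change of 0.06 (interval -1.32 to 1.44) in the authors' deposited table, at a level of 128. For Loxl2, a family member with scavenger receptor domains, the value was 0.24 (interval -1.04 to 1.53) at 131 in the authors' deposited table. The FDR of both was 1.00. Loxl1 had a level of 348 in the authors' deposited table. Whether Loxl1 differed from Lox or Loxl2 in its response was not tested, and their intervals overlap. The end of 1 of the 2 coding transcripts of Loxl2 in GENCODE M21 shares at least 95% identity over 60 bases or more with 58 other genes, which makes the Loxl2 count doubtful.

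The hydroxylases had wide intervals in muscle. The α subunits of prolyl 4-hydroxylase carry its catalytic site, and P4ha1 had a log2 fold change of 0.33 (interval -0.95 to 1.60, p = 0.617) in the authors' deposited table at a level of 105. P4ha2 had 2.36 there, with an interval of -0.98 to 5.71 (p = 0.166 in the authors' deposited table) at a level of 36.4. The point value of P4ha2 exceeded that of Loxl1, but its error of 1.71 was larger as well. Plod1, which hydroxylates lysines in the helix, had -0.12 in the authors' deposited table (interval -1.72 to 1.49). Plod2, which acts on the telopeptides, had 0.29 (interval -1.86 to 2.44), and Plod3, which also transfers sugars, had -0.27 (interval -2.17 to 1.63), both in the authors' deposited table. The 3 Plod genes had levels of 48.6 to 67.1 in the authors' deposited table and an FDR of 1.00.

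Pcolce was the gene with the tightest bound around no change in muscle. It had a log2 fold change of 0.23 (interval -0.52 to 0.97, p = 0.545) at a level of 601 in the authors' deposited table. It was the only 1 of the 10 whose interval lay within a 2-fold change in either direction. Errors ran from 0.30 for Serpinh1 to 1.71 for P4ha2. The largest p called in the muscle table was 5.47e-05. With these errors, reaching that p would have needed a log2 change of 1.22 for Serpinh1, 1.73 for Loxl1 and 6.88 for P4ha2. The cut-off for a call can lie somewhat above that p, so these sizes are approximate. Estimates well below them would not have been called with these errors.

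**Figure D2:**
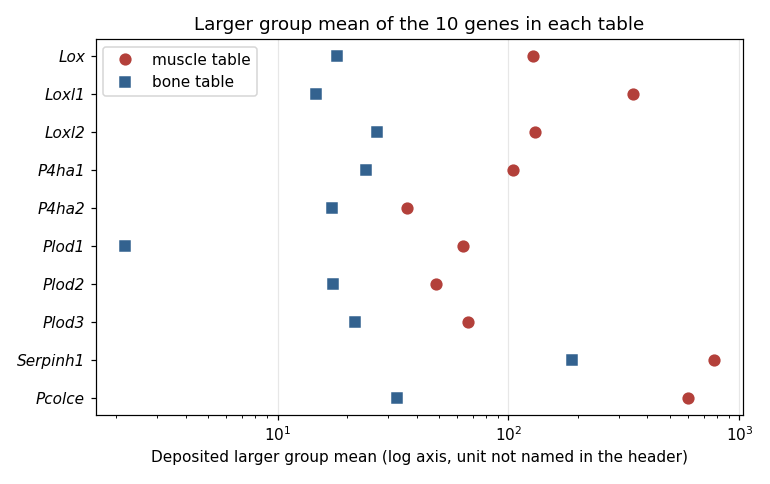
Deposited larger group mean (x axis, log scale, unit not named in the header) of each of the 10 genes (y axis) in the muscle table (circles) and the bone table (squares). Values run from 36.4 to 773 in muscle and from 2.19 to 189 in bone, in tables that may be normalized separately.

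Annotated positions and promoters were taken from GRCm38. Loxl1 (ENSMUSG00000032334) lies on chromosome 9 at 58287738 to 58313186 on the minus strand, and its last exon, where 3' tags of its 1 coding transcript are expected, spans 58287738 to 58288917. Serpinh1 (ENSMUSG00000070436) lies on chromosome 7 at 99345376 to 99353239 on the minus strand, with a last exon from 99345376 to 99346422. Plod3 (ENSMUSG00000004846) lies on chromosome 5 at 136987019 to 136996648 on the plus strand, with a last exon from 136996106 to 136996648. P4ha1 (ENSMUSG00000019916, chromosome 10, 59323296 to 59373304) and P4ha2 (ENSMUSG00000018906, chromosome 11, 54100095 to 54131665) are on the plus strand. No annotated gene on either strand overlaps the last exon of the 1 coding transcript examined for each of the 10 genes. Last exons of other transcripts were not checked. Coding transcripts of Serpinh1 and of P4ha2 have 7 distinct 3' ends per gene, and those of Pcolce have 5. The coding gene Fbxo24 overlaps Pcolce on the same strand outside the examined exon. Likewise the coding gene Znhit1 overlaps Plod3 on the opposite strand.

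RefSeq promoters, 250 bases before to 50 after the start on GRCm38.p6, were given for 6 of the 10 genes, and were searched on both strands because the study asked for estrogen receptor targets. The estrogen response element, searched as GGTCA and TGACC with any 3 bases between, was in 0 of the 6 and in 0.0700% of 32851 promoters of the same length, and AGGTCA, a single arm of it, was in 0 of 6 and 16.3%. ACGTG, a form of the core of the hypoxia response element, was in 4 of 6 and in 19.6% of all promoters. The motif holds a CpG, and the 6 promoters had 53.3 to 70.3% GC, against a median of 52.7% over all promoters. Among the 13159 promoters within that GC range 24.9% held ACGTG. Plod3 sets the low end of the range, while Serpinh1 had 62.3% GC and P4ha1 and P4ha2 70.3%. The range is therefore not closely matched to the promoters with ACGTG. The heat shock core GAANNTTC was in Plod1 alone of the 6 and in 7.86% of all. No matches of different motifs overlap in the 6 promoters. The 4 promoters with ACGTG are shown 5' to 3' along the gene because they join the chaperone, both prolyl hydroxylase subunits and 1 lysyl hydroxylase, and capitals mark ACGTG or its reverse complement CACGT. They cover chr7:99353190-99353489 on the minus strand for Serpinh1, and on the plus strand chr5:136986769-136987068 for Plod3, chr10:59323046-59323345 for P4ha1 and chr11:54100674-54100973 for P4ha2.
Serpinh1: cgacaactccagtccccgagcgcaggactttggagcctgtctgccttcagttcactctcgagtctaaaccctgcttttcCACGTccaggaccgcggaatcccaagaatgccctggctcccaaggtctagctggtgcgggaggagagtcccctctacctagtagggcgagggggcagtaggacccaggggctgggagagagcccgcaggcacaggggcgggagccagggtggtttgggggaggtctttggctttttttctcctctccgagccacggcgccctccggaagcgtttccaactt
Plod3: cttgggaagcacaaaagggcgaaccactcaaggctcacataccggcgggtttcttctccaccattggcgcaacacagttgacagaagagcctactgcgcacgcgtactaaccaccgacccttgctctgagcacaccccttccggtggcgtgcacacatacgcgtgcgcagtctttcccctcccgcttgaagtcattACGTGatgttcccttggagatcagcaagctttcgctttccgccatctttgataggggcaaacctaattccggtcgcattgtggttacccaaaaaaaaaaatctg
P4ha1: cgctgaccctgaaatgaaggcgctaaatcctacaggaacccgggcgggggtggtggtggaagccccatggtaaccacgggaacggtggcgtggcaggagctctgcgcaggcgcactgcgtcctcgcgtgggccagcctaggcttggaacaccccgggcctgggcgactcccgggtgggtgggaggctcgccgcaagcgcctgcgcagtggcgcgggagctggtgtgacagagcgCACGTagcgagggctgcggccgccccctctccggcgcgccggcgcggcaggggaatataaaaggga
P4ha2: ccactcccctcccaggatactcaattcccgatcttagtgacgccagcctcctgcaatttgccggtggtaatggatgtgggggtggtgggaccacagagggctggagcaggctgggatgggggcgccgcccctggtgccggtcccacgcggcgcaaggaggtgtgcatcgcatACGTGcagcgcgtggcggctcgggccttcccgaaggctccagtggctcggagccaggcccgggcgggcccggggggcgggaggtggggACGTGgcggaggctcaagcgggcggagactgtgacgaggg
The match began 171 bases before the start in Serpinh1, 54 before in Plod3 and 16 before in P4ha1. P4ha2 held 1 match beginning 78 bases before the start and 1 beginning at base 11 after it. Its RefSeq start lies inside the GENCODE gene, since its whole window lies downstream of the gene start at 54100095. The 4 genes had muscle log2 fold changes of 0.65, -0.27, 0.33 and 2.36 in the authors' deposited table, so the values had both signs, and none was called. In bone the 4 genes had -1.21, 5.17, 0.25 and 0.68 in the authors' deposited table, also with both signs and none called.

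In bone none of the 10 genes was called either, and the values spread far more widely. Loxl1 had a log2 fold change of 9.39 (interval 2.85 to 15.92) at a level of 14.6 in the authors' deposited table, with p = 0.00486 and FDR = 0.0784. For Plod3 the value was 5.17 (interval 0.92 to 9.43) at 21.6 in the authors' deposited table, with p = 0.0172 and FDR = 0.0822. Plod2 had 2.96 in the authors' deposited table (interval -1.39 to 7.31, p = 0.182). Of 10 genes 0 passed FDR 0.05, where 0.0352% of 8534 bone genes did. At an unadjusted p under 0.05, 2 of 10 were higher and 0 lower, beside 28.8% higher and 4.20% lower among 10518 bone genes with a p, so the count of higher genes was near or below that background. Of the 10, 6 had a positive value, as had 69.7% of all bone genes with a p, and their median log2 fold change was 0.46, against 2.51 over those genes. These backgrounds depend on level: the median was 4.99 over 5455 bone genes at a level up to 10, where Plod1 lies, and 1.18 over 2440 genes from there up to 30, where 7 of the 10 lie. It was -0.42 at levels above 30 and up to 100, where Pcolce lies, and 0.03 above 100, where Serpinh1 lies. With the adjustment over genes of a level of at least 10, Loxl1 was the only one called of the 9 that reached it, where 14.1% of genes were. Loxl1 reached that level through its knockout mean alone, so the filter depends on the change itself and nothing rests on this call. At an FDR under 0.1 Loxl1 and Plod3 were called, where 32.2% were.

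Lower values in bone came from Plod1, Lox, Serpinh1 and Loxl2. Plod1 had -4.99 (interval -11.04 to 1.05, p = 0.106) at a level of 2.19 in the authors' deposited table, where 84.3% of bone genes at a level up to 10 had positive values. Lox had -2.08 in the authors' deposited table (interval -6.58 to 2.42) at a level of 18.0. The chaperone gene Serpinh1, at 189 the only 1 of the 10 above a level of 100 in bone, had -1.21 in the authors' deposited table (interval -3.49 to 1.07, p = 0.298). Loxl2 had -0.85 (interval -5.37 to 3.68) in the authors' deposited table. None of these intervals excluded 0.

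Intervals in bone were also wide for the genes near 0. Pcolce had 0.81 (interval -3.42 to 5.04), P4ha2 0.68 (interval -3.97 to 5.32) and P4ha1 0.25 (interval -4.53 to 5.03) in the authors' deposited table, at levels of 32.8, 17.3 and 24.2. Errors of the 10 genes in bone ran from 1.16 to 3.33, against 0.30 to 1.71 in muscle. Reaching the largest p called in bone, 1.02e-05, would have needed log2 changes of 5.14 for Serpinh1 and 14.71 for Loxl1, again approximate sizes for a call. Estimates of the size seen in muscle would therefore not have been called in bone with these errors.

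The largest bone fold changes went with a very low level in 1 of the groups. Dividing the larger group mean by the size of the fold gave 0.0218 for Loxl1 and 0.0686 for Plod1, and 0.597 for Plod3. The corresponding quotients of Serpinh1 and Pcolce in bone were 81.5 and 18.7. In bone 49.6% of the genes with a p had a quotient under 0.1, and 85.7% of these were higher in the knockout. The fold changes of Loxl1 and Plod1 in bone are fitted values against such a level and are not estimates of size. In muscle no quotient of the 10 genes was below 7.07, that of P4ha2.

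**Figure D3:**
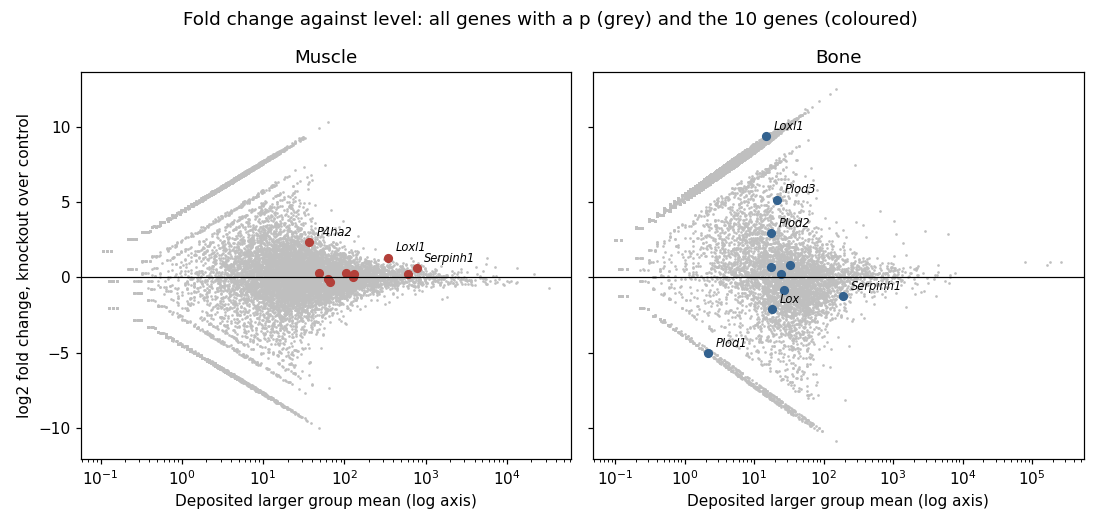
Log2 fold change of knockout over control (y axis) against the deposited larger group mean (x axis, log scale) in muscle on the left and bone on the right. Grey points are all genes with a p and coloured points are the 10 genes, some of them named. In bone Loxl1, at 9.39, and Plod1, at -4.99, lie on the outer diagonal bands of genes with a very low level in 1 group.

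Blood cell markers were positive in bone beside these values. All 5 neutrophil markers had positive values in the authors' deposited table for bone, with 1 called, a median of 3.06 and levels summing to 11370. All 5 macrophage and leukocyte markers were positive as well, with values of 2.28 to 8.24, none called and a level sum of 1443. Of that sum Lyz2 made 1399. In the authors' deposited table Adgre1 had 8.24 and Csf1r 7.91, with quotients of larger group mean and fold of 0.0276 and 0.0246. These folds are not estimates of size. Adgre1, Csf1r and Cd68 lay at levels up to 10, where 84.3% of bone genes were positive. All 5 erythroid markers were positive too, with a median of 0.99 and none called. Of all bone genes with a p 69.7% were positive, and 0.0352% of those with an FDR were called. Of 7 mesenchymal stroma markers 4 were positive and 3 negative in the authors' deposited table for bone, with a median of 0.38. The negative ones there were Dcn, with -0.69 at a level of 674, Col1a1, with -1.07 at 688, and Lum, with -1.43 at 83.5. The positive ones, Cd34, Pdgfra, Dpt and Ly6a, had lower levels of 5.07, 8.60, 18.7 and 48.1. None of the 7 was called. Osteoblast markers were 3 positive and 2 negative of 5. Of the positive ones Dmp1 and Sp7 had levels of 0.736 and 0.245 and no FDR, and Ibsp had 0.34 at a level of 289. The negative ones were Alpl, with -3.95 at a level of 162 (FDR = 0.0822 in the authors' deposited table), and Bglap, with -1.21 at 105. Of 5 chondrocyte markers 1 was positive, 3 negative and Matn1 was at 0. In muscle 6 of 7 stroma markers were positive, with a median of 0.51, and all 5 erythroid markers were negative, with a median of -0.99, none called in either list. Of all muscle genes with a p 53.5% were positive. The part of these cell types in the values of the 10 genes was not tested. In bulk samples fewer cells of a type and less RNA per cell cannot be told apart.

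The knockout effects in muscle and bone were compared gene by gene. The 10 genes had the same sign in both tissues in 6 cases. The share of all genes with the same sign was not computed, so nothing rests on this count. The difference of the log2 fold changes, muscle minus bone, was -8.07 for Loxl1 (interval -14.65 to -1.48) and -5.45 for Plod3 (interval -10.11 to -0.78). The bone term of Loxl1 is a fold against a level near 0, so its difference is not an estimate of size. Their errors and p-values were recovered from those of the authors' deposited table by a normal approximation, which can make intervals too narrow with 3 samples a group (p = 0.0164 for Loxl1 and p = 0.0220 for Plod3). After Benjamini-Hochberg adjustment over 9598 genes these p-values were 0.126 and 0.142. Of 10 genes 0 passed at an adjusted p of 0.05 and 2 had an unadjusted p under 0.05, where 24.6% of all genes did and none of them passed the adjustment. Serpinh1 had the narrowest interval, with a difference of 1.86 (interval -0.50 to 4.22). An adjusted p that misses the threshold does not show that the effects were alike.

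**Figure D4:**
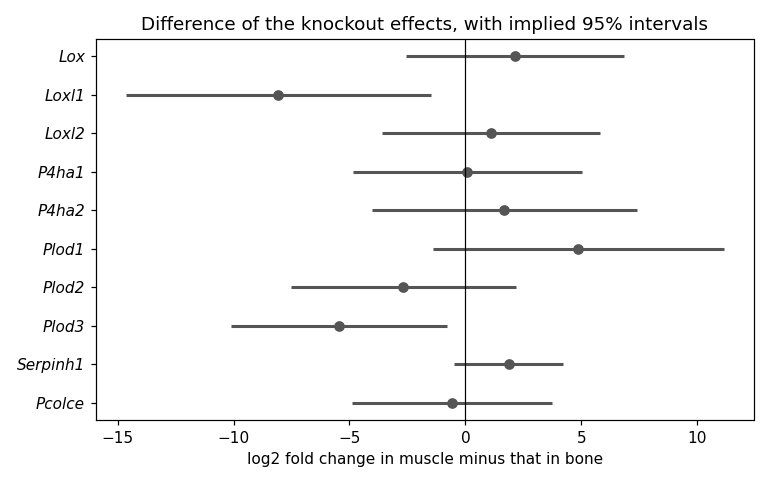
Difference of the log2 fold changes of knockout over control, muscle minus bone (x axis), for each of the 10 genes (y axis), with 95% intervals recovered from the deposited p-values. The lines of Loxl1 and Plod3 lie below 0, and neither difference passed the adjustment over all genes.

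Other genes of collagen processing were read from lists of prolyl hydroxylation partners, chaperones and export factors, procollagen proteinases and other cross-linking enzymes. In muscle 0 of the 23 with an FDR were called, 20 of the 28 with a p were positive and their median log2 fold change was 0.42. Over all muscle genes, 0.127% of those with an FDR were called, and those with a p were 53.5% positive with a median of 0.12. The muscle background depends on level, as given above. P3h3, of the prolyl 3-hydroxylase family, had the smallest p of the hydroxylation partners, with 2.73 in the authors' deposited table (interval 1.22 to 4.24, p = 0.000394, FDR = 0.132), ahead of P3h1 at 2.60 (FDR = 0.967). Pcolce2, the paralog of Pcolce, had 0.99 in the authors' deposited table (interval 0.35 to 1.62, FDR = 0.232) at a level of 795. The proteinase gene Adamts14 had -6.82 at a level of 5.36 and no FDR in the authors' deposited table. Among cross-linking enzymes Loxl4 had 6.56 at a level of 4.34 with no FDR, and Loxl3 had 2.37 (FDR = 0.910), in the authors' deposited table. Adamts14 and Loxl4 had quotients of larger group mean and fold of 0.0475 and 0.0461, so their folds are not estimates of size. Among chaperones and export factors Sec23a, a coat protein gene of vesicles leaving the endoplasmic reticulum, had 1.53 and Fkbp10, a collagen chaperone, 1.23 in the authors' deposited table, with FDR of 0.950 and 1.00.

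In bone 0 of the 24 other processing genes with an FDR were called, and 10 of the 25 with a p were positive, with a median of -0.45. Over all bone genes, 0.0352% of those with an FDR were called, and those with a p were 69.7% positive with a median of 2.51. These backgrounds depend on level, as given above. P4ha3, a further α subunit of prolyl 4-hydroxylase, had 9.40 at a level of 16.1 in the authors' deposited table (FDR = 0.0784), and P3h3 had -5.01 at 23.1 (FDR = 0.103). Fkbp10 had 9.75 and Mia3, which loads procollagen into vesicles, 8.86 in the authors' deposited table (FDR = 0.0784 for both). Bmp1, the C-proteinase that Pcolce enhances, had 8.71 in the authors' deposited table (FDR = 0.0784) and Pcolce2 -1.54 (FDR = 0.275). Loxl3 had 7.86 (FDR = 0.0793) and Tgm2, a transglutaminase gene, -0.16 (FDR = 0.971) in the authors' deposited table. The levels of Bmp1, Mia3 and Loxl3 were 9.91, 12.1 and 6.19 in the authors' deposited table, levels at which most bone genes had positive values. The quotients of larger group mean and fold were 0.0239 for P4ha3, 0.0287 for Fkbp10, 0.0262 for Mia3, 0.0237 for Bmp1 and 0.0266 for Loxl3. These 5 values are therefore folds against a level near 0 as well and are not estimates of size.

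The collagen chains these enzymes act on stood beside them in muscle with 1 of 6 fibrillar chains with an FDR called. Of all muscle genes with an FDR, 0.127% were called. Col1a2 rose 2.42-fold (interval 0.76 to 1.79 in log2, FDR = 0.00261 in the authors' deposited table), a fold near that of Loxl1 but with a smaller error. Col1a1 had 0.86 in the authors' deposited table (FDR = 0.204). Over 7 fibrillar chains the median was 0.70 in muscle and -1.07 in bone, where none was called and 2 of 7 were positive. Over all genes with a p the medians were 0.12 in muscle and 2.51 in bone, and both depend on level. At bone levels above 100, where all of these chains but Col5a1 lie, the median was 0.03 and 51.6% were positive. In bone Col5a1 had 4.37 and Col5a2 -1.70 in the authors' deposited table, with FDR of 0.129 and 0.342. The fibrillar list and Loxl1 were known from earlier results of these data, so this is a description.

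**Figure D5:**
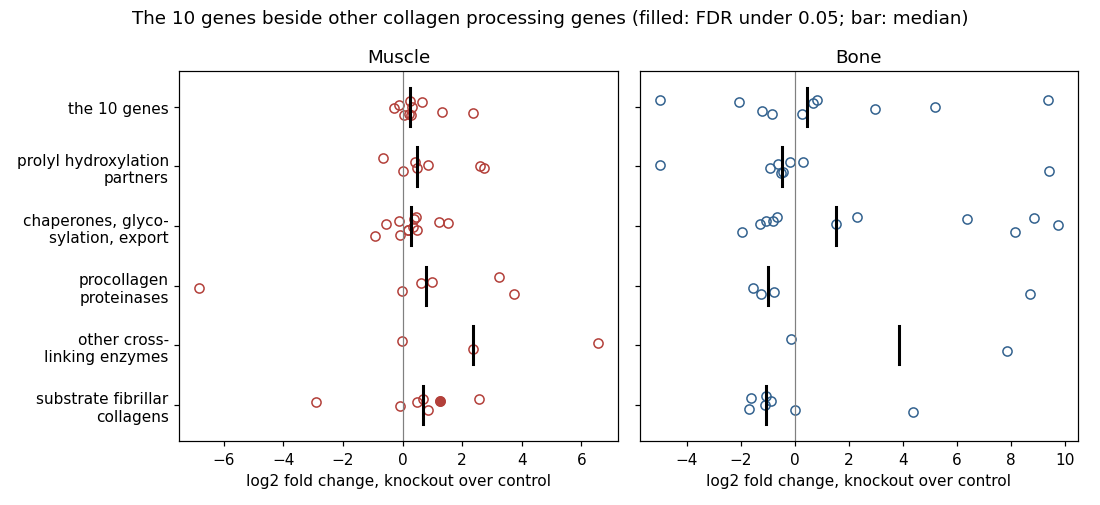
Log2 fold change of knockout over control (x axis, ranges differ between panels) for the 10 genes and 5 lists of related genes (y axis), in muscle on the left and bone on the right. Circles are genes with a p, filled where the FDR was under 0.05, and bars are list medians. Col1a2 in muscle is the single filled circle.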

How the data were processed

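RNA of PDGFRα+ cells was profiled with QuantSeq 3' mRNA libraries per the labels' protocols, in 12 samples of 4 groups of 3. Builds named in the submitters' processing notes are GRCm38 and mm10, and the aligner, counter and statistical test are not stated in the sources used here. Each tissue has 1 table of 25655 genes. Per the file headers, the log2 fold changes are those of knockout over control that the authors deposited, with their p-values, also as FDR and Bonferroni. The larger group mean is a score from the deposited tables, per the file headers, with no unit named. A further 48 columns of values per library carry codes that match no label and were not used, so the count-based test could not be run, and depth is not known.

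Standard errors were computed as the size of the fold change over the z of its two-sided p (Python 3.11.15, scipy 1.17.1), and intervals as 1.96 errors to each side. The differences between tissues used a normal approximation with Benjamini-Hochberg adjustment over all genes with a p in both tables. Both steps were tested on simulated data drawn with normal errors. That test covers the arithmetic and cannot show whether the deposited p-values came from a normal test. The alternatives were other adjustments, minimum group means of 10 and 50, and fold changes relative to genes of like level. Deposited regions had the start and end of GENCODE M21 (GRCm38) for 564 of 25600 matched gene IDs, though the same length for 25178, so positions come from GENCODE by ID. The ends of coding transcripts, 300 bases, were searched against all transcripts with blastn 2.17.0. The 10 genes and the lists were chosen with earlier results of these data known. The rule named the 10 genes, and of each list the called genes or at most the 2 of smallest p in a tissue.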

Additional observations from a re-analysis of the deposited data

How the results depend on the processing

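No paired analysis was possible because no column carries a replicate number, and leaving out a replicate was not run for the same reason. In muscle 0 of the 10 genes were called with the adjustment over all genes with a p, with Bonferroni, with group means of at least 10 or 50, or at an FDR under 0.1, a threshold chosen after seeing the data. In bone the count was 0 with the adjustment over all genes, with Bonferroni and with a group mean of at least 50, which 1 of the 10 genes reached. It was 1 with a group mean of at least 10, where 14.1% of 5063 genes passed, and Loxl1 then had an adjusted p of 0.0499 (range over its alternatives 0.0499 to 1.00). Loxl1 reached 10 only through the knockout group, where it is high, so that filter depends on the change itself. It was 2 at an FDR under 0.1, where 32.2% of genes passed, and 1253 genes shared the FDR of Loxl1. Relative to the median of genes in the same decile of group means, P4ha2 in bone had the opposite sign (-0.20, against 0.68), and the count of tissue differences passing was 1, not 0, where 422 of all 9598 genes passed. That was Plod1, with an adjusted p of 0.0203 over all genes, because the median of bone genes at its level was 6.42, and its bone fold, with a quotient of 0.0686, is not an estimate of size. It was 0 with group means of at least 10 in both tissues, where Plod1 had no value. The missing depth limits all of these values.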

Other observations

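P4ha1, P4ha2, Plod2 and Lox are known as hypoxia-induced genes, so a list of 10 other hypoxia-induced genes was read beside them. In muscle 0 of 7 with an FDR were called, 3 of 10 were positive and the median log2 fold change was -0.23. Over all muscle genes, 0.127% of those with an FDR were called, and those with a p were 53.5% positive with a median of 0.12. Egln3, an oxygen-sensing prolyl hydroxylase gene, had -8.16 at a level of 13.8 and no FDR in the authors' deposited table, and the mitophagy gene Bnip3 had 2.21 (FDR = 0.784). In bone 0 of 8 were called, 4 were positive and the median was 0.67. Over all bone genes, 0.0352% of those with an FDR were called, and those with a p were 69.7% positive with a median of 2.51. Backgrounds in both tissues depend on level, as given above. Egln3 had 8.13 at a level of 5.95 in the authors' deposited table for bone (FDR = 0.0822), and the lactate dehydrogenase gene Ldha had 4.28 (FDR = 0.0988). Egln3 had quotients of larger group mean and fold of 0.0483 in muscle and 0.0213 in bone, so neither fold is an estimate of size.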
